A study of Mus musculus with 19 samples.

Results

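The genes described here encode the nuclear subunits of the mitochondrial respiratory chain and ATP synthase. They were found by gene symbol alone: the families Nduf, Sdh, Uqcr, Cox4 to Cox8 and Atp5, with Cyc1 and Cycs. The rule took 81 of 12778 genes, of which 37 are named for complex I, 4 for complex II, 9 for complex III, 13 for complex IV and 17 for complex V, and 1, Cycs, is cytochrome c. The rule uses no measured value. Their transcripts were counted by QuantSeq, which sequences one tag at the 3′ end of each polyadenylated RNA, in 19 mouse libraries. Some came from embryonic stem cells (ESC), the others from induced pluripotent stem cells (iPSC) that had been reprogrammed from embryonic fibroblasts (MEF) with Oct4, Sox2 and Klf4 and grown for more than 18 passages. All were grown in LIF and serum. The genotypes were WT, miR-290KO, miR-302KO and miR-290KO;miR-302KO, the last called double KO here. WT iPSC had 3 libraries. Each of the 3 KO iPSC groups had 2 independently derived colonies with 2 libraries per colony, and the miR-290KO ESC and miR-302KO ESC had 2 libraries each. WT ESC are not analysed here. The series description excepts the WT iPSC from independent derivation. If its 3 libraries share 1 derivation, p-values against WT come out too small, because their spread leaves out that between lines. The ESC libraries carry no colony label either, and each counts as 1 sample in the tests. All groups share 1 estimate of the spread there. If libraries of WT iPSC or ESC repeat 1 line, that estimate may be too small for every comparison.

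The respiratory chain moves electrons from NADH (complex I) and succinate (complex II) through ubiquinone, complex III and cytochrome c to oxygen at complex IV. Complexes I, III and IV pump protons across the inner mitochondrial membrane, and complex V, the ATP synthase, uses that gradient to make ATP. Complex II has nuclear subunits only, while mitochondrial DNA encodes some subunits of each of the others, among them the catalytic core of complex IV, whose nuclear subunits surround that core. Pluripotent mouse cells are known for a glycolytic metabolism beside active respiration, and several complex IV subunits exist as isoforms that differ between tissues. The 13 mitochondrial protein genes are not analysed here. Names follow the files: Ndufa4 carries a complex I name but is now placed with complex IV, Cox7a2l is a factor of supercomplex assembly, and Atp5sl is a complex I assembly factor.

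The deleted clusters encode miRNAs that share a seed, the part of a miRNA that pairs with its targets. The sequences are given because the double KO lacks both sources of this seed. Below are 5 of these miRNAs as RefSeq lists them on GRCm38.p6, all on the plus strand and written 5′ to 3′, with the seed (bases 2 to 8) in capitals. Those of the miR-302 cluster lie on chromosome 3, at chr3:127545275-127545297 (miR-302b-3p) and chr3:127545665-127545687 (miR-302d-3p). Those of the miR-290 cluster lie on chromosome 7, at chr7:3218968-3218989 (miR-291a-3p), chr7:3220691-3220712 (miR-294-3p) and chr7:3220815-3220837 (miR-295-3p).
miR-302b-3p: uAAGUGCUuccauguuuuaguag
miR-302d-3p: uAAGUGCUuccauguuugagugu
miR-291a-3p: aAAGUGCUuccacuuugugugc
miR-294-3p: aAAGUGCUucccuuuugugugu
miR-295-3p: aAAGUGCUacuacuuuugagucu

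Matches to this seed were rare in the 3′ untranslated regions of respiratory chain genes. The letters AGCACTT or GCACTTA, on the transcript strand, were in 7 of the 80 genes with such a region in GENCODE M21 (8.75%), among them Cycs, Ndufb8, Atp5g1 and Ndufs4. Among all genes of the matrix 2590 of 11839 had a match (21.9%). The longest annotated 3′ untranslated region had a median of 196 bases in the respiratory chain genes and 1145 bases in all genes. The seed match was present in 2 of 8 of the genes that were higher in the double KO than in WT iPSC, in 2 of 25 of those that were lower, and in 3 of 47 of those that were not called. Over all genes the share was 26.7% of those higher and 16.8% of those lower, so 2 of 8 is near the share of all genes that rose. The 4 called genes are shown with 27 bases of GENCODE transcript, 5′ to 3′, with the match in capitals. All are on the minus strand of GRCm38.p6, at chr6:50564079-50564105 (Cycs), chr19:44549762-44549788 (Ndufb8), chr11:96069413-96069439 (Atp5g1) and chr13:114288524-114288550 (Ndufs4).
Cycs: ggtcagaggcAGCACTTtgtgacaaat
Ndufb8: ctataatcccAGCACTTgggaggctga
Atp5g1: tagtaatcccAGCACTTggagtatgca
Ndufs4: acgaaatcagAGCACTTagagtttacc

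The 19 libraries held between 6435997 and 24974510 recovered reads (median 17459410). Levels are in CPM, a gene's reads per 1000000 recovered reads of the library, and were available for 78 of the 81 genes. Cox7c, Ndufa7 and Ndufs5 have log2 differences only. A pair of libraries stood apart from others of their group over all genes, colony 1 library 2 of the miR-302KO iPSC and colony 2 library 1 of the miR-290KO iPSC. Each stands with its colony in the results, and the values without it are given where they bear on a count. All 10 pluripotency markers are in the matrix, and reads were recovered for 9 of 10 (Pou5f1, Sox2, Nanog and others). Their summed level was 2265 to 4220 CPM in the libraries of the other 5 groups. It was 53.4 to 99 CPM in the double KO, so the label iPSC of the double KO goes against its markers. Of the other lists only the markers present in the matrix could be summed, and absent ones have no level here. Fibroblast markers in the matrix (3 of 12) summed to at most 12.9 CPM in any library. Trophoblast markers (7 of 10) summed to 4.95 to 44.7 CPM in the double KO and reached 1001 CPM elsewhere. Muscle markers (4 of 8) summed to 2.17 to 4.28 CPM in the double KO and up to 45.2 CPM elsewhere, and endoderm markers (2 of 8) to at most 11.8 CPM, with Gata4 at 0 in the double KO. In bulk RNA, fewer cells of a type and less RNA per cell cannot be told apart, and the part of the loss of pluripotency markers in the results below was not tested.

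The double KO was compared with WT iPSC first, to ask what the loss of both clusters changed. More respiratory chain genes fell than rose. In limma's moderated test with Benjamini-Hochberg adjustment over all 12778 genes, 26 of 81 were lower in the double KO at an adjusted p under 0.05, where 21.5% of all genes were, and 8 were higher, where 27.4% of all genes were. Those shares are 32.1% lower and 9.88% higher for the respiratory chain genes. The median log2 fold change was −0.34, against 0.16 over all genes. Levels per library showed the same direction: in 43 of 78 genes every double KO library was below every WT library (27.8% of the 12239 genes with reads), in 11 every one was above (35.2%), and in 24 they overlapped. Median-of-ratios scaling moved the median of all genes to 0.01 and gave 5 higher and 32 lower respiratory chain genes. With that scaling 24.1% of all genes were higher and 25.1% lower. Without colony 1 of the double KO the median was −0.35, against 0.18 over all genes. Without its colony 2 it was −0.27, against 0.15. In each of these removals the share called lower was near that of all genes, while the share called higher stayed below it.

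**Figure D1:**
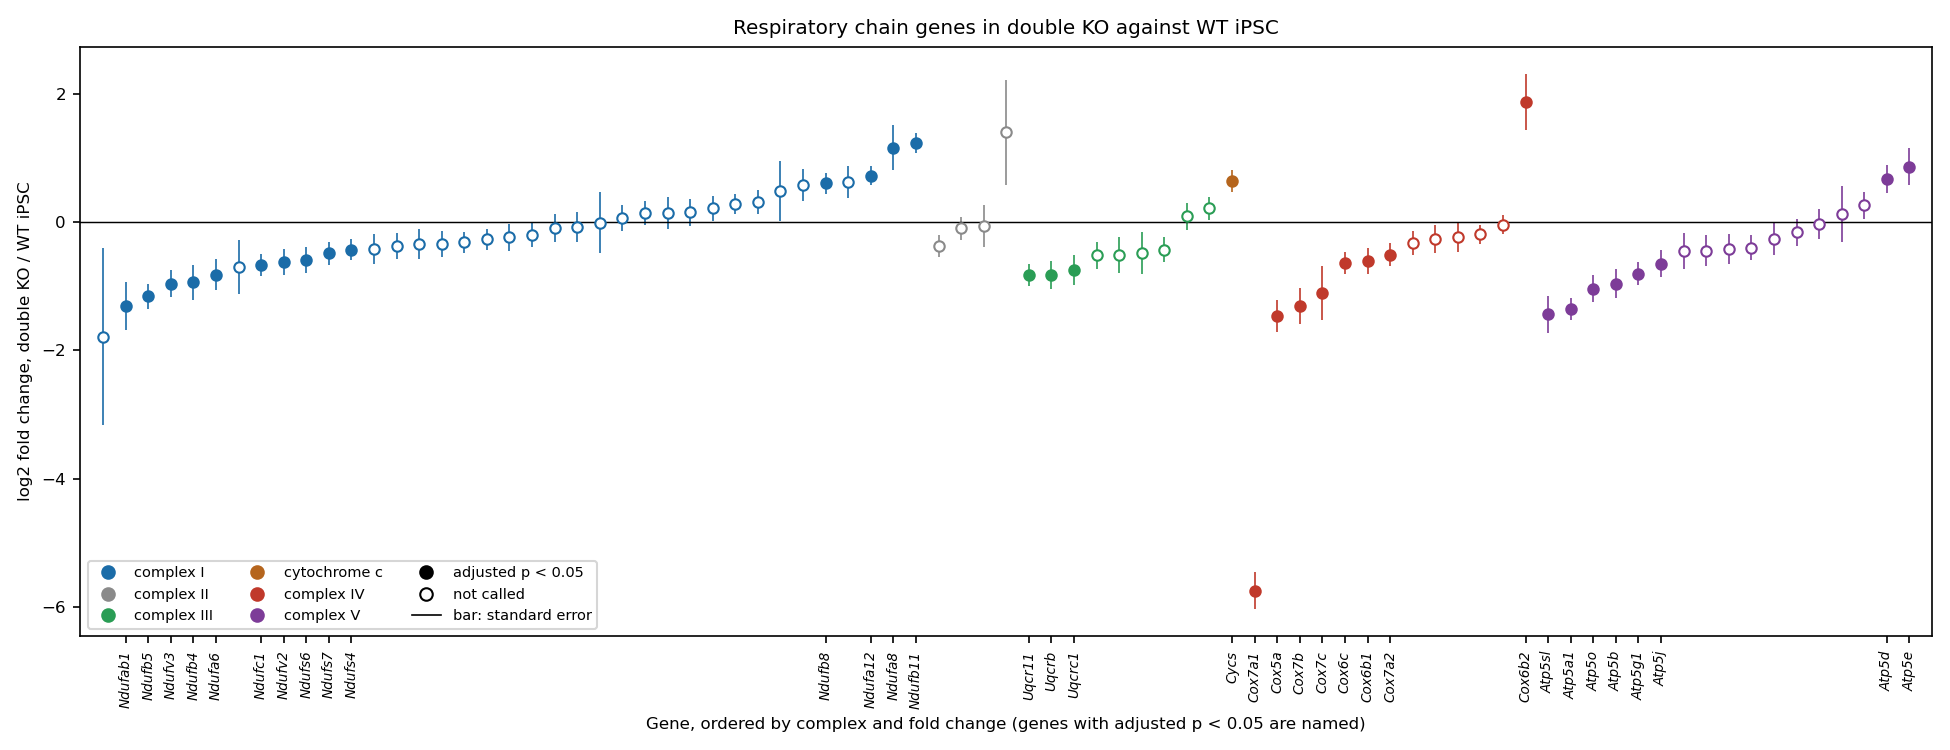
Log2 fold change of each of the 81 genes between double KO and WT iPSC (y axis), ordered by complex and value (x axis); filled points passed an adjusted p of 0.05 and are named on the axis, and bars are standard errors. Cox7a1 lies at −5.75 and Cox6b2 at 1.87, and each of complexes I to V holds genes on both sides of 0.

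Summed over the 78 genes with reads, respiratory chain transcripts made up 2.75% to 2.91% of reads in WT iPSC libraries and 2.11% to 2.26% in the double KO. The summed level was 28492 ± 859 CPM in WT iPSC (SD, n = 3) and 21950 ± 919 CPM over the 2 colonies of the double KO. It was 26106 ± 1109 CPM in the miR-290KO iPSC, 27232 ± 303 in the miR-302KO iPSC, 27669 ± 615 in the miR-290KO ESC and 25979 ± 1041 in the miR-302KO ESC (SD, n = 2 each). The highest double KO library, at 22609 CPM, lay below the lowest library of any other group, at 25103 CPM. The sums were not tested, and the complexes were not alike. Complex V had 10212 ± 470 CPM in WT and 6976 ± 535 CPM in the double KO, and complex IV had 7628 ± 221 and 5349 ± 144 CPM. For complex III the values were 3027 ± 89 and 2318 ± 56.4 CPM, and in these 3 complexes no double KO library reached a WT library. Complex I had 6618 ± 323 CPM in WT and 6170 ± 229 CPM in the double KO, and its highest double KO library (6342 CPM) lay just below its lowest WT library (6345 CPM). Complex II had 642 ± 31.8 and 583 ± 23.3 CPM, with overlapping libraries. Cytochrome c alone lay on the other side, with 365 ± 39 CPM in WT and 554 ± 67.5 CPM in the double KO.

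**Figure D2:**
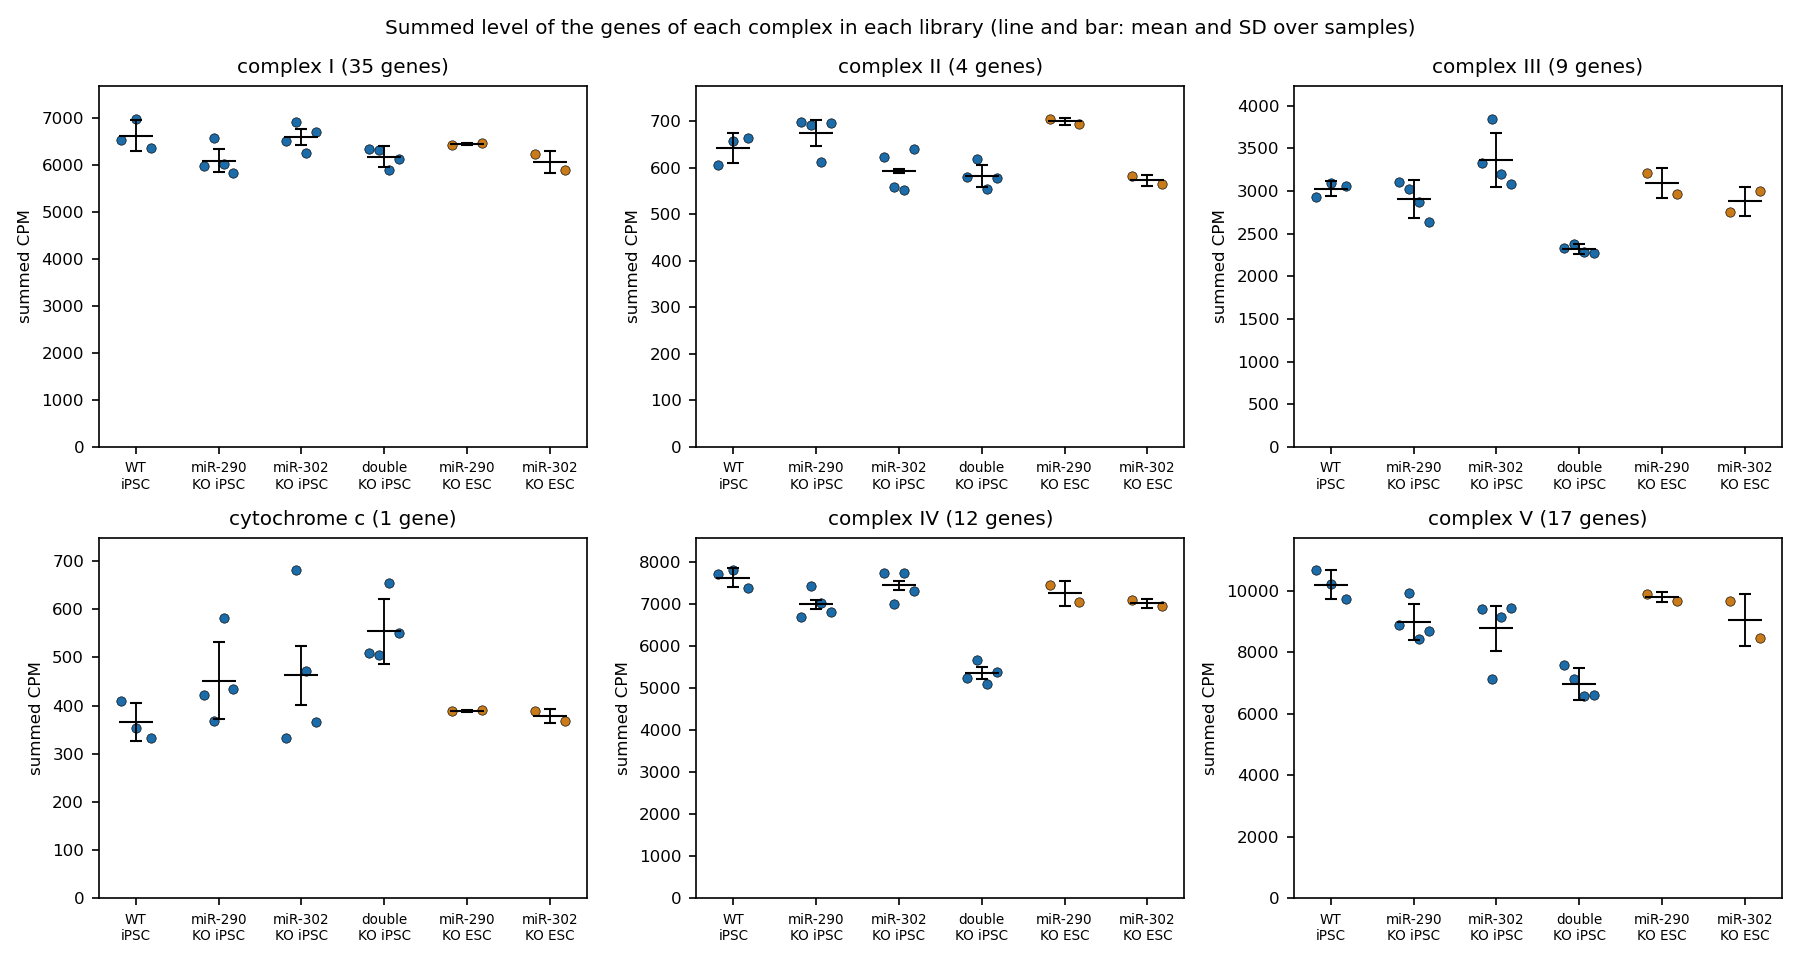
Summed CPM of the genes of each complex (y axis, from 0) in each library of the 6 groups (x axis); points are libraries, lines and bars the mean and SD over samples. Complexes III, IV and V are lower in the double KO than in every library of WT, complexes I and II differ by less, and cytochrome c is higher.

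In complex I, 4 of 37 genes rose in the double KO against WT (10.8%, against 27.4% of all genes). In the other direction 10 fell (27%, against 21.5%), a share not far above that of all genes. The median log2 fold change was −0.24. Ndufb5, an accessory subunit of the membrane arm, had 303, 349 and 308 CPM in the WT libraries and 139, 126, 145 and 144 CPM in the double KO libraries. All double KO libraries lay below all WT libraries, and the log2 fold change was −1.16 (SE 0.20, adjusted p 0.000457). Ndufab1, the mitochondrial acyl carrier protein, which also serves fatty acid and lipoate synthesis, fell from 103 ± 9.45 to 40.7 ± 2.17 CPM (log2 fold change −1.31, SE 0.37, adjusted p 0.0109). This call was lost without colony 1 of the double KO. The fall also included Ndufv2 (−0.62), an iron-sulfur subunit of the NADH-oxidising module, Ndufs7 (−0.49), which carries the iron-sulfur centre nearest to ubiquinone, Ndufs4 (−0.43) and Ndufs6 (−0.59), and the accessory subunits Ndufv3, Ndufb4, Ndufa6 and Ndufc1 (−0.96 to −0.67). The core subunits Ndufv1, Ndufs1, Ndufs3 and Ndufs8 had log2 fold changes between −0.38 and 0.15 and were not called in limma's test.

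Fewer genes of complex I rose than fell, and those called higher were Ndufb11, Ndufb8, Ndufa12 and Ndufa8. Ndufb11, an X-linked accessory subunit of the membrane arm, had 135, 172 and 159 CPM in WT and 339, 395, 325 and 350 CPM in the double KO. The groups did not overlap, and the log2 fold change was 1.23 (SE 0.16, adjusted p 6.69e-05). Ndufb8 had 386, 358 and 407 CPM in WT and 543, 572, 568 and 576 CPM in the double KO (log2 fold change 0.60, SE 0.16, adjusted p 0.00864). Ndufa12 went from 188 ± 7.2 to 301 ± 3.68 CPM (0.72, SE 0.15, adjusted p 0.00163). Ndufa8, an accessory subunit with cysteine motifs, had 263 and 276 CPM in colony 1 of the double KO but 169 and 146 CPM in colony 2, against 81.9 to 109 CPM in WT. Its rise of 1.16 on the log2 scale (SE 0.35, adjusted p 0.0153) was no longer called without colony 1 of the double KO, without WT library 2 or with each library as a sample. Ndufs5 had the lowest value of the complex, −1.79, with a standard error of 1.38, and was not called (adjusted p 0.302).

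None of the 4 subunits of complex II, succinate dehydrogenase, was called in limma's test of the double KO against WT. Of all genes 27.4% were higher and 21.5% lower. Among the 4, 1, Sdha, had an unadjusted p under 0.05, as had 55.5% of all genes. Sdha, the flavoprotein that oxidises succinate, had 229 ± 21.4 CPM in WT and 172 ± 13.9 CPM in the double KO (log2 fold change −0.37, SE 0.17, adjusted p 0.0855). The iron-sulfur subunit Sdhb and the membrane anchor Sdhc had log2 fold changes of −0.10 (SE 0.18) and −0.06 (SE 0.33). The other anchor, Sdhd, was the noisiest gene of the complex: it had 4.78, 53.3 and 60.3 CPM in WT and 39.9, 70.9, 70 and 87.3 CPM in the double KO, and ran from 1.23 to 111 CPM among the miR-302KO iPSC libraries. Its log2 fold change of 1.4 had a standard error of 0.82.

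In complex III, 3 of 9 genes fell (33.3%, against 21.5% of all genes) and none rose in limma's test (27.4% of all genes). An unadjusted p under 0.05 was found for 5 (55.6%, against 55.5% of all genes). The median was −0.51. Uqcr11 had 293, 333 and 301 CPM in WT and 178, 168, 166 and 162 CPM in the double KO, with no overlap (log2 fold change −0.83, SE 0.17, adjusted p 0.00186). Uqcrb, the ubiquinone-binding accessory subunit, fell by 0.83 on the log2 scale (SE 0.22, adjusted p 0.00806), with 210 to 213 CPM in colony 1 of the double KO and 291 to 306 CPM in colony 2. Its call was lost without colony 1. Uqcrc1, a core protein, went from 260 ± 80.5 to 146 ± 12.1 CPM (log2 fold change −0.75, SE 0.24, adjusted p 0.0227). Cyc1, the cytochrome c1 that hands electrons to cytochrome c, had 102, 103 and 168 CPM in WT and 78.2, 87.2, 83.7 and 80.9 CPM in the double KO. The libraries did not overlap, yet the difference did not pass the test (−0.51, SE 0.28, adjusted p 0.145).

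Cytochrome c, the mobile carrier between complexes III and IV and a trigger of apoptosis once released, rose. Cycs had 409, 354 and 333 CPM in WT and 509, 504, 654 and 550 CPM in the double KO (log2 fold change 0.64, SE 0.17, adjusted p 0.009). Every double KO library exceeded every WT library. It lost its call under median-of-ratios scaling and without colony 2 of the double KO. Cyct, the testis form of cytochrome c, which lies outside the gene rule, had 37.2 ± 11 CPM in WT and 0 reads in the 4 double KO libraries.

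Complex IV, cytochrome c oxidase, had the highest share of genes that fell: 7 of 13 (53.8%, against 21.5% of all genes). In it 1 gene rose (7.69%, against 27.4% of all genes), and the median was −0.51. Cox7a1, the heart and skeletal muscle form of subunit VIIa (chr7:30184144-30186078, plus strand of GRCm38.p6), changed most. It had 62.7, 67.1 and 83.6 CPM in WT and 0.435, 1.53, 1.52 and 1.53 CPM in the double KO. The difference was −5.75 on the log2 scale (SE 0.29, adjusted p 1.18e-08), a level of 0.0186 times that in WT. It had 23.7 to 42.9 CPM in the miR-290KO iPSC, 56.1 to 74.2 in the miR-302KO iPSC, 32 and 41.9 in the miR-290KO ESC and 48.5 and 59.7 in the miR-302KO ESC. The double KO thus lay apart from all other libraries, and each miR-290KO library was below each WT library. The muscle markers with reads summed to 3.75 to 29 CPM in WT, 15.2 to 45.2 CPM in the miR-290KO iPSC, 2.75 to 6.01 CPM in the miR-302KO iPSC and 2.17 to 4.28 CPM in the double KO, and their part in the Cox7a1 result was not tested. Cox7a2, the form of the same subunit found in most tissues, fell less, from 850 ± 88.4 to 578 ± 4.81 CPM (log2 fold change −0.51, SE 0.18, adjusted p 0.0345), and this call was lost under 8 of 23 alternatives, among them each removal of a double KO colony.

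**Figure D3:**
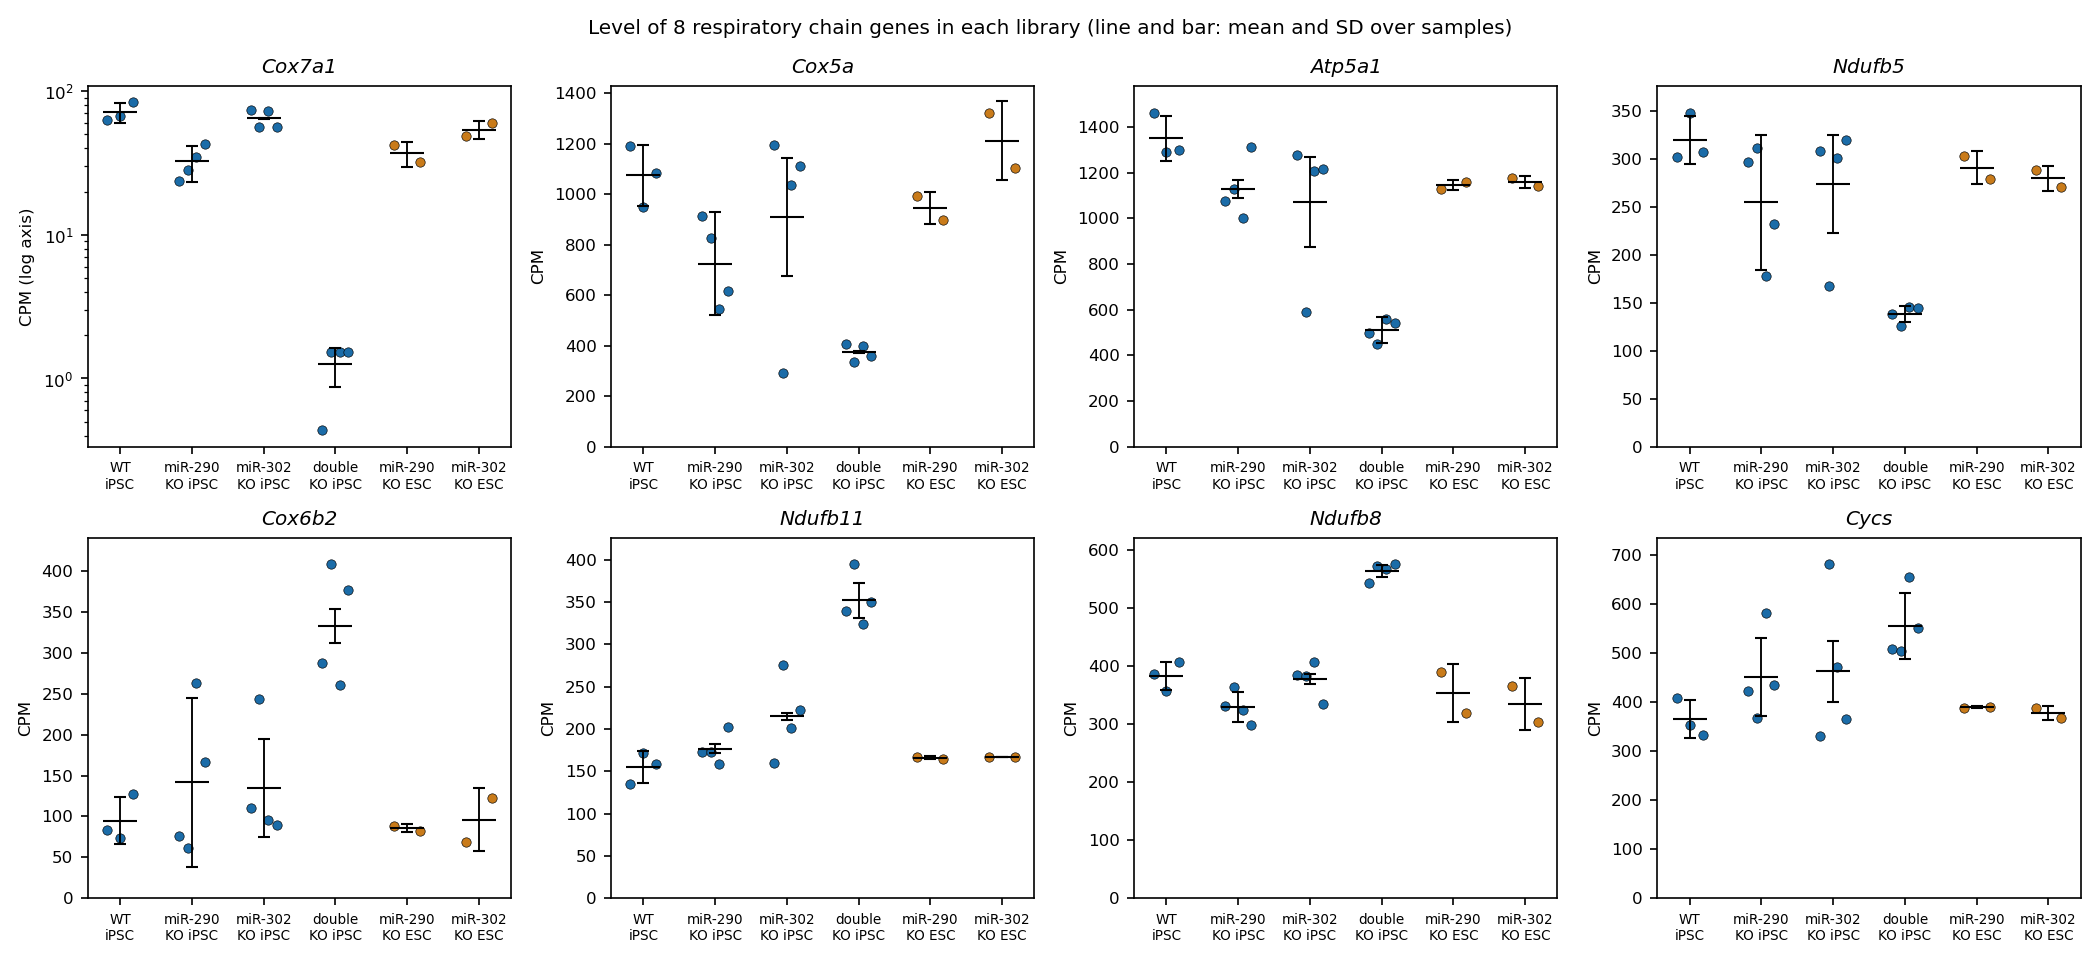
CPM of 8 respiratory chain genes (y axis; log axis for Cox7a1, from 0 for the others) in each library of the 6 groups (x axis); points are libraries, lines and bars the mean and SD over samples. The double KO libraries lie below all WT libraries for Cox7a1, Cox5a, Atp5a1 and Ndufb5 and above all of them for Cox6b2, Ndufb11, Ndufb8 and Cycs.

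Cox6b2, the testis form of subunit VIb (chr7:4751792-4753094, minus strand), rose while its counterpart in most tissues fell. Cox6b2 had 84, 73.2 and 128 CPM in WT and 287, 408, 261 and 377 CPM in the double KO (log2 fold change 1.87, SE 0.44, adjusted p 0.00372), and Cox6b1 went from 572 ± 62.8 to 363 ± 18.3 CPM (−0.61, SE 0.20, adjusted p 0.022). The Cox6b1 call was lost in 5 of 23 alternatives: without either double KO colony, without WT library 2, with no trend and with each library as a sample. Among the single KOs, the libraries that stood apart had the highest Cox6b2: 263 CPM in colony 2 library 1 of the miR-290KO iPSC, which overlapped the double KO, and 243 CPM in colony 1 library 2 of the miR-302KO iPSC. Cox5a, which binds the matrix side of the core, had 1189, 950 and 1082 CPM in WT and 407, 336, 398 and 361 CPM in the double KO (log2 fold change −1.47, SE 0.25, adjusted p 0.000379). Cox7b fell by 1.31 on the log2 scale (SE 0.28, adjusted p 0.00214), Cox7c by 1.11 (SE 0.42, adjusted p 0.0437) and Cox6c by 0.64 (SE 0.17, adjusted p 0.00711). The remaining subunits were not called in limma's test, while the authors' deposited table lists all 5 of them as lower. Cox4i1, the ubiquitous form of the largest nuclear subunit, had 709 ± 77 and 582 ± 6.51 CPM (−0.24, SE 0.23, adjusted p 0.411), and Cox8a had 850 ± 67.2 and 800 ± 1.36 CPM (−0.04, SE 0.15, adjusted p 0.825). Cox6a1 (−0.19, SE 0.15), Cox5b (−0.26, SE 0.22) and the supercomplex factor Cox7a2l (−0.33, SE 0.19) were not called either. The paired isoforms Cox4i2, Cox6a2, Cox7b2, Cox8b and Cox8c are not analysed here.

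In complex V, 2 of 17 genes rose (11.8%, against 27.4% of all genes) and 6 fell (35.3%, against 21.5%), with a median of −0.42. Both chains that form the catalytic head fell. Atp5a1, the α subunit, had 1462, 1290 and 1297 CPM in WT and 496, 448, 561 and 542 CPM in the double KO, without overlap (log2 fold change −1.36, SE 0.17, adjusted p 4.88e-05). Atp5b, the catalytic β subunit, went from 1411 ± 49.8 to 706 ± 50 CPM (log2 fold change −0.96, SE 0.23, adjusted p 0.00407). The stalk subunits Atp5o (−1.04) and Atp5j (−0.65) fell as well. The central stalk was uneven: Atp5d, the δ subunit, rose (0.67, SE 0.22, adjusted p 0.0229), Atp5e, the ε subunit, rose (0.86, SE 0.29, adjusted p 0.0277), and Atp5c1, the γ subunit, had −0.03 (SE 0.23, adjusted p 0.914). Atp5d had 236 ± 49.2 CPM in WT and 361 ± 33 CPM in the double KO, and Atp5e 127 ± 13.7 and 227 ± 66.1 CPM. Both rises lost their calls under median-of-ratios scaling and without colony 1 of the double KO or WT library 1 or 2, and that of Atp5d also without colony 2 of the double KO.

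Subunit c, the ring that turns with the proton flow, is made from Atp5g1, Atp5g2 and Atp5g3, which encode the same mature protein. Of these, Atp5g1 fell, with 632, 519 and 610 CPM in WT and 353, 353, 321 and 273 CPM in the double KO (log2 fold change −0.81, SE 0.18, adjusted p 0.00275). Atp5g3 had 1358 ± 92.6 and 974 ± 224 CPM (−0.46, SE 0.28, adjusted p 0.189), and Atp5g2 637 ± 51.8 and 556 ± 55.8 CPM (−0.16, SE 0.21, adjusted p 0.56). Atp5sl, the complex I assembly factor with an ATP synthase name, fell from 38.3 ± 6.76 to 13.7 ± 1.52 CPM (−1.44, SE 0.29, adjusted p 0.00135). Respiratory chain genes have many processed pseudogenes and near-identical copies, and the treatment of reads that map to several places is not given in the sources used here, so levels of single genes are uncertain to that extent.

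In limma's test neither single KO had a respiratory chain gene past the threshold. In the miR-290KO iPSC against WT, limma called 0 of 81 higher (1.21% of all genes were) and 0 lower (0.36% of all genes), while 10 had an unadjusted p under 0.05, as had 2136 of all 12778 genes (16.7%). A single gene was called lower with a pseudocount of 1 CPM, where 0.605% of all genes were. The median was −0.14, against 0.14 over all genes. Cox7a1 was nearest to a call, with 23.7, 28.5, 35 and 42.9 CPM where WT had 62.7 to 83.6 CPM (log2 fold change −1.14, SE 0.29, adjusted p 0.0719). Cox5a had −0.58 (SE 0.25, adjusted p 0.259), and Cox4i1 lay on the other side (0.64, SE 0.23, adjusted p 0.18). In colony 2 library 1, which stood apart, Cox4i1 reached 1608 CPM, against 826 to 1180 CPM in the other libraries of the group.

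In the miR-302KO iPSC against WT, 0 of 81 genes were higher (0.0235% of all genes) and 0 lower (0.00783%), with 12 at an unadjusted p under 0.05 (15.1% of all genes) and a median of −0.06, against −0.11 over all genes. Without colony 1 library 2 limma again called none, and without all of colony 1 none. Without colony 2, which leaves colony 1 alone with its library that stood apart, 15 were called lower, where 8.84% of all genes were. That library held low levels of many members, for instance 588 CPM of Atp5a1 against 1206 to 1278 CPM in the other libraries of the group, 293 CPM of Cox5a against 1037 to 1196, and 10.7 CPM of Ndufa4 against 156 to 227. Sdhc had 11.2 CPM in it and 79.5 to 141 CPM in the others. The group mean of Sdhc against WT was −1.06 on the log2 scale (SE 0.33, adjusted p 0.263).

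**Figure D4:**
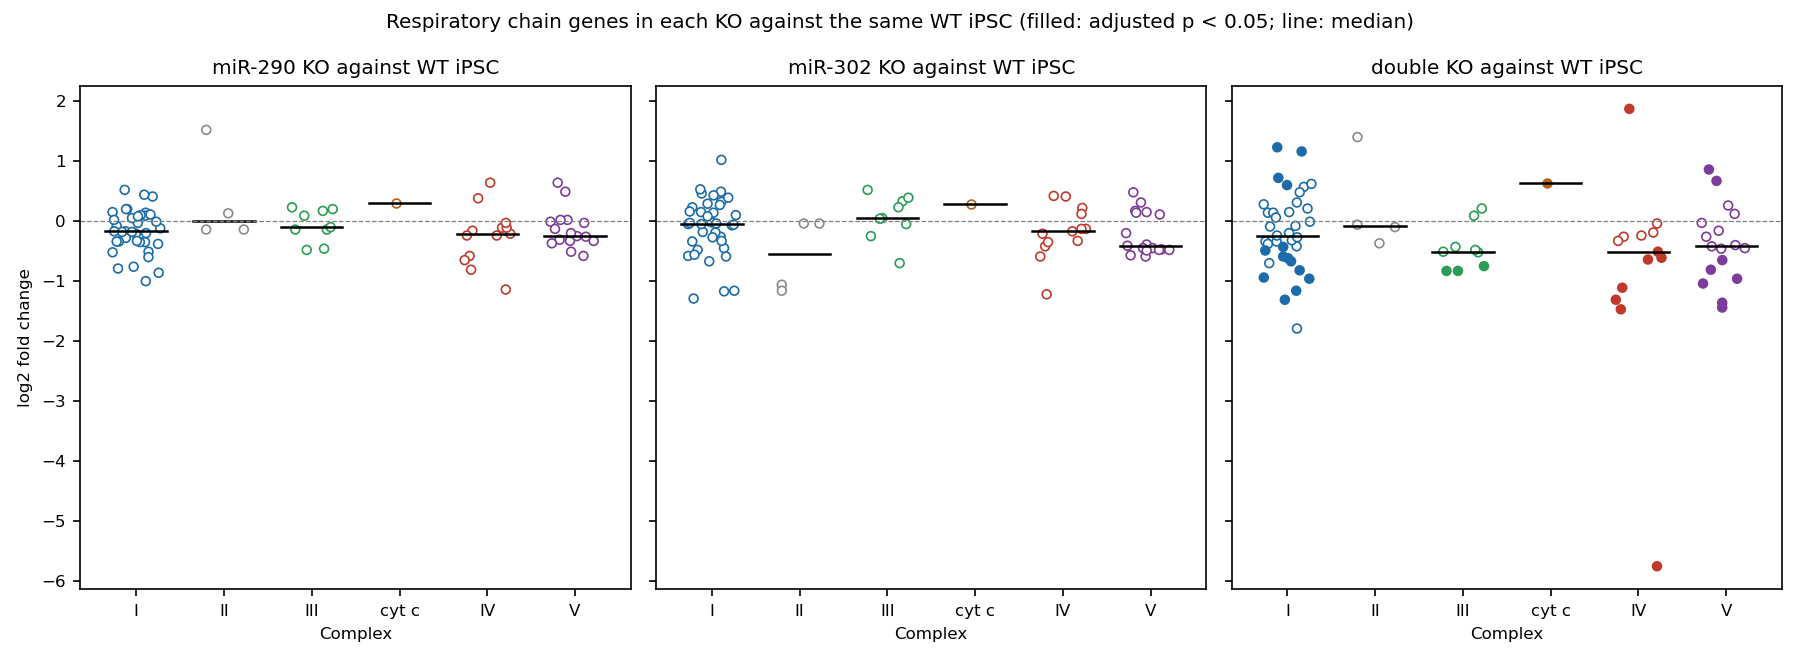
Log2 fold change of the 81 genes (y axis) by complex (x axis) in the miR-290KO, miR-302KO and double KO iPSC, each against the same 3 WT libraries; filled points passed an adjusted p of 0.05 and lines are medians. Filled points appear in the double KO panel, where 34 genes passed, and in neither single KO.

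The double KO was then set against each single KO, to ask what the loss of the second cluster added. Against the miR-290KO iPSC, 4 of 81 genes were higher (15.6% of all genes) and 11 lower (16.8%), with a median of −0.17 against 0.03 over all genes. The falls led with Cox7a1 (−4.61, SE 0.32, adjusted p 3.4e-07), Atp5sl (−1.24), Atp5a1 (−1.10), Uqcrc1 (−0.95) and Cox5a (−0.89). The rises were Cox6b2 (1.48), Ndufb11 (1.03), Ndufb8 (0.81) and Ndufa12 (0.52). Without colony 1 of the double KO 2 were higher and 2 lower (9.02% and 12% of all genes), and without its colony 2 3 and 6 (11.1% and 14.3%). Without colony 1 of the miR-290KO 4 were higher and 5 lower (10.7% and 12.2%), and without its colony 2 3 and 5 (9.56% and 12.7%). Without colony 1 library 2 of the miR-302KO, which enters only the shared spread, 7 were higher and 16 lower (17.8% and 18.7%).

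Against the miR-302KO iPSC, 9 of 81 genes were higher (28.5% of all genes) and 18 lower (18.4%), with a median of −0.20 against 0.24 over all genes. Under median-of-ratios scaling the median of all genes was 0.03, and 5 respiratory chain genes were higher and 31 lower (23.8% and 22.9% of all genes). The falls led with Cox7a1 (−5.62, SE 0.32, adjusted p 4.6e-08), Atp5sl (−1.59), Uqcrc1 (−1.14), Cox5a (−1.05) and Cyc1 (−1.03). The rises led with Sdhd (2.56), Ndufa8 (1.75), Ndufa4 (1.66), Cox6b2 (1.45) and Sdhc (1.00). Without colony 1 library 2 of the miR-302KO, in which Ndufa8 had 15.8 CPM, Ndufa8 stayed called at 1.06. The rises of Sdhd, Ndufa4 and Sdhc were no longer called without it. In that library these genes had 2.44, 10.7 and 11.2 CPM. Without that library 8 genes were higher and 31 lower (26.5% and 21.6% of all genes), and without colony 2 of the double KO 4 and 12 (22.2% and 15.9%). Both comparisons share the double KO with that against WT, so their members are not independent.

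A test of departure from additivity asked whether the double KO differed from the sum of the single losses, on the log2 scale. It called 5 of 81 genes above the sum (12% of all genes) and 8 below it (11.7%). Cox7a1 lay furthest below (−4.48, SE 0.43, adjusted p 1.5e-05), followed by Atp5sl (−1.39), Uqcrc1 (−1.34), Cox4i1 (−1.29) and Cyc1 (−1.26). Cox4i1 had a higher mean in each single KO (1135 ± 367 CPM in the miR-290KO and 979 ± 279 CPM in the miR-302KO) than in WT (709 ± 77 CPM) and a lower one in the double KO (582 ± 6.51 CPM). Ndufa4 (2.17), Ndufa8 (1.64), Atp5h (0.96), Ndufb8 (0.83) and Ndufa12 (0.71) lay above the sum. Of the 10 genes named here, Cox7a1 alone was called under all 23 alternatives. The count fell to 6 with a replicate block and moved between 2 and 23 when 1 sample was left out. It was 23 (12 above, 11 below) without colony 2 of the miR-302KO, where 18% of all genes lay above and 11.9% below. It was 2 without colony 1 of the double KO, where the shares were 6.77% and 8.56%, and lay between 3 and 6 in each removal of a WT library, of a miR-290KO ESC library, of colony 2 of the miR-290KO, of colony 1 of the miR-302KO or of colony 2 of the double KO.

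The remaining comparisons called no respiratory chain gene in limma's test. Between miR-290KO and miR-302KO iPSC, 0 of 81 were higher (1.85% of all genes) and 0 lower (0.391%), with 6 at an unadjusted p under 0.05 (18.5% of all genes). Cox7a1 had the smallest p there (log2 fold change −1.01, SE 0.32, adjusted p 0.114). Without colony 2 of the miR-302KO 5 of 81 were called higher in the miR-290KO, where 9.41% of all genes were, and without WT library 1 a single one was (1.53%). Between the miR-290KO and miR-302KO ESC, 0 of 81 were higher (0.376% of all genes) and 0 lower (0.211%), and 2, Ndufa3 (0.49, SE 0.18) and Cox6a1 (0.43, SE 0.16), had an unadjusted p under 0.05 (12.8% of all genes). None was called between these ESC in any of the 23 alternatives.

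iPSC and ESC of the same genotype were compared to see whether derivation by reprogramming left a difference. For the miR-290KO, 0 of 81 genes were called higher or lower in iPSC, as were 0% of all genes in each direction, and 1, Uqcr11 (−0.52, SE 0.19), had an unadjusted p under 0.05 (3.85% of all genes). For the miR-302KO the counts were also 0 of 81 and 0% of all genes, with 9 at an unadjusted p under 0.05 (10.5% of all genes), led by Ndufa1 (−1.42, SE 0.52). Without colony 2 of the miR-302KO iPSC, 1 gene was called higher and 12 lower in iPSC than in ESC, where 0.18% and 7.29% of all genes were.

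The authors' deposited tables of each KO iPSC against WT list genes at an adjusted p of at most 0.05. In the authors' deposited table for the double KO, 62 of the 81 genes appear, 7 higher and 55 lower, among 8672 rows of which 4038 are higher and 4634 lower. Of the 34 genes called in limma's test, 33 are in that table, all with the same sign, and Cycs is not. A further 29 are in the authors' deposited table alone, among them the core subunits Ndufs1, Ndufs3 and Ndufv1 and the complex IV genes Cox4i1, Cox5b, Cox6a1, Cox7a2l and Cox8a, all lower. The authors' deposited table gives Cox7a1 a log2 fold change of −6.07 (SE 0.31) and Cox6b2 one of 1.57 (SE 0.23). Its values for the double KO lay below limma's for every listed member, by a similar amount. For instance, Cox5a had −1.77 against −1.47 in limma, Cox8a −0.34 against −0.04 and Ndufb8 0.30 against 0.60. The 29 further falls and the smaller rises come with this shift of the listed members, whose source was not tested. The authors' standard errors were also smaller than limma's for some genes, such as Cox4i1 (0.12) and Cox5b (0.15), though not for Cox7a1. The part of the shift and of the standard errors in these calls was not tested. For the miR-290KO, the authors' deposited table lists 6 of the 81 genes among 1429 rows (878 higher, 551 lower), all 6 lower: Cox7a1 (−1.26), Cox7b (−0.79), Ndufa6 (−0.73), Cox5a (−0.71), Ndufb4 (−0.68) and Atp5j (−0.65). For the miR-302KO, 0 of the 81 are among the 43 rows of the authors' deposited table.

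Genes that build, supply or regulate the chain were counted in the double KO against WT, where 27.4% of all genes rose and 21.5% fell. Of 14 complex I assembly factors 1 rose, Acad9 (log2 fold change 0.95), and 2 fell, led by Nubpl (−1.35), which delivers iron-sulfur clusters. Of 10 factors for complexes II and III, 1 rose, Lyrm7 (1.82), and 2 fell, with Uqcc3 and Uqcc2 both at −0.68. Of 25 factors for complex IV, 5 rose, led by the copper chaperone Sco2 (1.51), and 5 fell, led by Lrpprc (−1.85), which stabilises mitochondrial mRNAs. Of 5 for complex V, 2 rose, led by Tmem70 (1.51), and 0 fell. Median log2 fold changes of these 4 lists were −0.13, 0.48, 0.23 and 0.26.

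Of 14 genes for maintenance and transcription of mitochondrial DNA, 0 rose and 3 fell, where 27.4% of all genes rose and 21.5% fell. The number that fell is thus near the share of all genes. The 3 were Tefm (−1.51), Tfam (−1.17), which packages mitochondrial DNA and starts its transcription, and the helicase gene Peo1 (−1.08). The list's median was −0.42, and limma gave 4 of 14 an unadjusted p under 0.05, where 55.5% of all genes had one. Of 18 import genes 1 rose, Timm17b (0.74), and 8 fell, led by the receptor Tomm70a (−1.49), with a median of −0.63. Of 8 genes for uncoupling and nucleotide exchange 0 rose and 4 fell, with a median of −0.62. An unadjusted p under 0.05 was found for 4 of them (55.5% of all genes). Ucp2, an inner membrane carrier, went from 57.4 ± 9.17 CPM in WT to 1.44 ± 1.22 CPM in the double KO (−5.48, SE 0.49).

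Of 19 genes of the tricarboxylic acid cycle and pyruvate entry, 2 rose and 3 fell (median −0.04), where 27.4% of all genes rose and 21.5% fell. Pyruvate carboxylase, Pcx, rose most (2.43), and Pdhb fell most (−1.19). The partner of Pdhb in pyruvate dehydrogenase, Pdha1, rose by 1.11 on the log2 scale. Of 15 genes for other electron entry and ubiquinone synthesis 0 rose and 4 fell, led by Coq3 (−1.96), with a median of 0.07. An unadjusted p under 0.05 was found for 6 of the 15 (55.5% of all genes). The number that fell in this list is near the share of all genes. Among 18 nuclear regulators of respiratory genes 5 rose and 5 fell (median −0.18), near the shares of all genes. Creb1 rose most (1.22). Esrrb fell most, from 317 ± 48.4 CPM in WT to 0.532 ± 0.0648 CPM in the double KO; it is an orphan receptor that also belongs to the pluripotency markers. Nrf1, a factor that binds many respiratory promoters, rose (0.75, SE 0.22), and Gabpa, the ETS subunit of another, fell (−1.23, SE 0.24). Of 4 isoform genes outside the gene rule 0 rose and 2 fell, Cyct and Ndufa4l2.

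Promoter sequence was compared as a property that the gene rule did not use. RefSeq windows on GRCm38.p6, from 250 bases before to 50 after the start, were matched for 69 of the 81 genes and searched on both strands. The NRF1 motif (GCGCA, any base, GCGC) was in 17 of 69 (24.6%), in 11.6% of genes of the matrix and in 5.19% of all promoters. The YY1 core AAGATGG was in 12 of 69 (17.4%), against 8.45% and 7.28%. The ETS motif CCGGAAG was in 16 of 69 (23.2%), against 20.1% and 9.93%, and the CCAAT box in 31 of 69 (44.9%), against 43.9% and 41.1%. Among the 23 matched genes that fell in the double KO, 7 held the YY1 motif, 5 the NRF1 motif, 3 the ETS motif and 10 the CCAAT box. Among the 8 that rose the counts were 1, 1, 1 and 4, and among the 38 that were not called 4, 11, 12 and 17. The motifs were not counted among all genes that fell or rose, and a link between a motif and a change was not tested. A match describes these letters only.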

How the data were processed

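Expression was measured by QuantSeq (3′ tags, 200 ng of total RNA, single-end reads of 50 bp) in 19 libraries, per the labels' protocols. The submitters' processing notes name Trim Galore 0.66, STAR, Salmon 1.4.0, FastQC 0.11.9, MultiQC, limma and DESeq2 1.34.0, and the build mm10; their order and settings are not given in the sources used here. The matrix the authors deposited holds log2 values. Read from the numbers themselves, they are log2 CPM with a small prior plus an offset that is fixed for each gene. Whole reads were recovered for 12239 of 12778 genes (95.8%; 99.7% of their values within 0.02 of a whole read), and levels are CPM from these reads. The offset leaves differences between libraries unchanged. The tables of comparisons the authors deposited hold log2 fold changes, test scores and p-values, per the file headers. In the matrix, 6 columns that match no library of this series were not used, and 19 gene names had become dates.

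Tests used limma (3.58.1, under R 4.3.3), fitted to the log2 values as the authors deposited them. The 2 libraries of a KO iPSC colony were averaged, which gave 13 samples in 6 groups. A single fit took in all of them, leaving 7 residual degrees of freedom, and variances were moderated along a trend with level. p-values were adjusted (Benjamini-Hochberg) over 12778 genes within each of 10 comparisons, at a threshold of 0.05. The prior shrinks log2 fold changes of weak genes. Libraries of a group differed beyond counting noise, but so did the 2 libraries of each KO colony, which were averaged. That difference cannot show whether the WT iPSC or ESC libraries are independent samples. The member rule uses gene symbols alone, but this gene family and the gene lists were picked with earlier results of these data known, and support nothing beyond their own values. In the double KO against WT, genes were named by complex (the 2 largest called changes in each direction), with the isoforms of complex IV, subunit c, all Sdh genes, Cyc1 and Cycs; in other comparisons, all called members up to 10, otherwise the 5 largest in each direction. Other members are named from the counts after their values were seen. Sequences come from RefSeq and GENCODE M21; gene positions matched 79 of 81 members. Alternatives were each library as a sample, median-of-ratios scaling, sample weights, no trend, a filter at 1 CPM in 2 samples, a pseudocount of 1 CPM, only the groups compared, a replicate block, each sample left out, and each library that stood apart left out; that for the miR-290KO library was added after seeing the data. limma's test was also run on simulated data, and the outcome is not given here.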

Additional observations from a re-analysis of the deposited data

Results flagged for a closer look

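Among 102 groups of 4 libraries of named genes, 10 held a library far from the others. Chance gives about 1 in 20 groups where the 4 libraries are independent. Here they come from 2 colonies, and the genes share libraries, so the 10 cannot be judged against that rate. Colony 1 library 2 of the miR-302KO iPSC held 6 of the 10. In it Atp5a1 had 588.1 CPM (1206 to 1278 in the others of the group), Cox6b2 243.3 (89.32 to 110.5), Cox7a2 1357 (858.8 to 901.3), Ndufa8 15.8 (94.84 to 107.7), Ndufb5 167.8 (301.6 to 319.9) and Sdhb 358.7 (195.9 to 215.2). In the double KO, Cox7a1 had 0.4348 CPM in colony 1 library 1 (1.519 to 1.534) and Ndufa4 203.4 CPM in colony 1 library 2 (290.4 to 307.8). Sdhc had 65.63 CPM in colony 2 library 1 of the miR-290KO iPSC (139.2 to 148.5), and Uqcr11 351.8 CPM in colony 2 library 2 of the miR-302KO iPSC (304 to 311.9).

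For 13 of the 81 genes limma's test called a departure from additivity on the log2 scale, 5 above and 8 below the sum, beside 12% and 11.7% of all genes. Of the 10 named in the report Cox7a1 alone was called in all 23 alternatives; Ndufa4, for example, was lost in 14 and ran from 1.09 to 3.25. The values below the sum were Cox7a1 −4.48, Atp5sl −1.39, Uqcrc1 −1.34, Cox4i1 −1.29, Cyc1 −1.26, Ndufa13 −1, Ndufb7 −0.99 and Ndufs6 −0.94. Those above it were Ndufa12 0.71, Ndufb8 0.83, Atp5h 0.96, Ndufa8 1.64 and Ndufa4 2.17.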

How the results depend on the processing

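Of the 18 named genes called between double KO and WT iPSC, 10 were called in all 23 alternatives and 0 reversed; the numbers were 4 of 9 against the miR-290KO, 4 of 10 against the miR-302KO and 1 of 10 for additivity. Sdhb, which was not called against WT, had −0.21 without colony 1 of the double KO and 0.02 without its colony 2. When samples or libraries were left out, the members called ran from 19 to 38 for double KO against WT, 0 to 1 for miR-290KO against WT, 0 to 15 for miR-302KO against WT, 4 to 23 for double KO against miR-290KO, 16 to 39 for double KO against miR-302KO, 0 to 5 between the single KO iPSC, 0 to 13 for miR-302KO iPSC against ESC and 2 to 23 for additivity. Without a trend in the spread, 8 members were called against the miR-290KO, where 14.5% of all genes were higher and 15.5% lower. For additivity 4 were called (10.3% of all genes in each direction). With only the groups compared in the fit, 8 were called against the miR-290KO (14.1% of all genes higher and 13.5% lower). The count was 15 against the miR-302KO (20.3% and 13%) and 7 for additivity (10.9% and 10.8%). With a pseudocount of 1 CPM, 1 was called for miR-290KO against WT (2.37% of all genes higher and 0.605% lower). With each library as a sample, 1 was called between the single KO iPSC (5.71% of all genes higher and 1.35% lower). The colony and library numbers share only a number across groups: same-numbered samples had deviations correlated at −0.267 to 0.108. With the replicate block, 27 members were called for double KO against WT, where 24.8% of all genes were higher and 17.7% lower. For additivity 6 were called (7.74% and 10% of all genes). The cause of these changes was not tested. A removal that leaves 1 sample in a group assumes that it varies like the other groups. The 3 members without recovered reads entered neither the filter nor the pseudocount fit.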
